A study of Mus musculus with 12 samples.

Results

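Cck encodes preprocholecystokinin, the precursor of the peptide hormone cholecystokinin. Its only annotated probe, 1 of 45281 on the arrays, was followed in B16 cells, a mouse melanoma line whose pigmentation comes and goes in culture. Cck is 1 gene of the 19057 that the annotation names, and it was chosen by its measured signal, as the gene with the largest rise on the pigmented days, so its differences between pigmented and depigmented days are given as a description, with no test. The 12 arrays covered 6 days of a culture cycle, with 1 array per day from each of 2 consecutive cycles, called set 1 and set 2. All arrays were of B16 cells in DMEM with fetal calf serum. Cells labelled pigmented were harvested on days 4, 8 and 12 after seeding at 100 cells per cm2. Cells labelled depigmented were those of day 0 and those of days 16 and 20, which had been replated on day 12 at 10000 cells per cm2, per the labels' protocols. Pigmentation therefore cannot be told apart from time and seeding, and the density given in each array's own label departs from that protocol on several days. No label describes the 2 cycles as independent cultures, so the p-values below cover the spread between arrays alone, which may be technical.

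Cholecystokinin is released by endocrine cells of the gut after a meal and by neurons of the brain. Its precursor is cut by prohormone convertases, trimmed by carboxypeptidase E, sulfated on a tyrosine by tyrosylprotein sulfotransferases, amidated by peptidylglycine alpha-amidating monooxygenase and stored in dense-core granules. The finished peptide acts on a pair of G protein-coupled receptors, encoded by Cckar and Cckbr. Transcription of the gene is known from other cell types to respond to cyclic AMP and calcium through factors that bind a site of the CRE and AP-1 type and an E-box close to the start of transcription.

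In RefSeq, Cck lies on the minus strand of chromosome 9 (GRCm38.p6, 121489824 to 121495694). Its promoter is shown because the gene was undetected on some days and bright on others. The 300 bases from 250 before to 50 after the annotated start, chr9:121495645-121495944, minus strand, read 5′ to 3′ as follows, with the motif matches in capitals.
Cck promoter: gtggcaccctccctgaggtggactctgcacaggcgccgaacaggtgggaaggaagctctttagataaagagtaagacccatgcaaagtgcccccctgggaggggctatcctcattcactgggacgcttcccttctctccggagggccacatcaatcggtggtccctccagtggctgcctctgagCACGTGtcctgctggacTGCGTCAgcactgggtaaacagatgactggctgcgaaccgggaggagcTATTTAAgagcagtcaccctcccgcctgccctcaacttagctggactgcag
The first match, CACGTG, is the palindromic E-box at positions -66 to -61 relative to the annotated start. Positions -49 to -43 hold TGCGTCA, a variant of the CRE and AP-1 type of site. The third, TATTTAA, an A/T-rich stretch, runs from -1 to 6, across the annotated start itself. The motifs were chosen with this sequence in view and were searched on both strands without overlaps between them. Of 32851 mouse promoters of this length, 7.15% held CACGTG, 2.12% held TGCGTCA and 4.51% held TATTTAA. The letters CATGTG (14.2% of promoters), TGACGTCA (1.79%), TGAGTCA (5.2%), GGGCGG (35.7%) and TATAAA (13.6%) were not in this window.

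The arrays were alike in technical measures. Each detected 18508 to 19780 probes at a detection p-value under 0.05, array medians lay between 67.7 and 80 in signal, and normalized values of the paired arrays within days correlated across genes with r of 0.995 to 0.996. Of 17 genes of melanocyte identity 16 were detected on at least 2 arrays and Ednrb on none. Their summed signal ranged from 73360 to 134800 on pigmented arrays and from 22330 to 71220 on depigmented arrays. Among 14 annotated markers of neuroendocrine and enteroendocrine cells, the cells that normally make the hormone, 11 were detected on no array. Chga, Chgb, Neurod1, Insm1, Isl1, Pax6 and Rfx6 were among these. Of the 14, 3 were detected on at least 2 arrays, beside 11470 of all 19057 annotated genes. The summed signal of the 14 ranged from 1362 to 1978 on pigmented arrays and from 1407 to 1939 on depigmented arrays, and the groups overlapped.

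Cck was undetected at the start of the cycle, bright on days 4 and 8, dimmer on day 12 and undetected afterwards. On day 0 its probe gave a signal of 68.4 in set 1 and 65.8 in set 2, and shares of 0.494 and 0.644 of the negative controls were at least as bright, so neither array detected it. On day 4 the signal was 1531 and 1745, and on day 8 it was 1997 and 1556. On day 12 it was 239 and 241, still above all negative controls on both arrays. After replating the probe was undetected again, with 63.5 and 63.6 on day 16 and 63.4 and 61.9 on day 20. The lowest pigmented array (239) lay above the highest depigmented array (68.4), and all 6 pigmented arrays and 0 of 6 depigmented arrays detected the gene. In the authors' deposited table, where background had been taken off, Cck stood at 1273 and 1409 on day 4, at 1541 and 1393 on day 8, at 208 and 167 on day 12, and between -5.01 and 2.96 on the depigmented arrays.

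**Figure D1:**
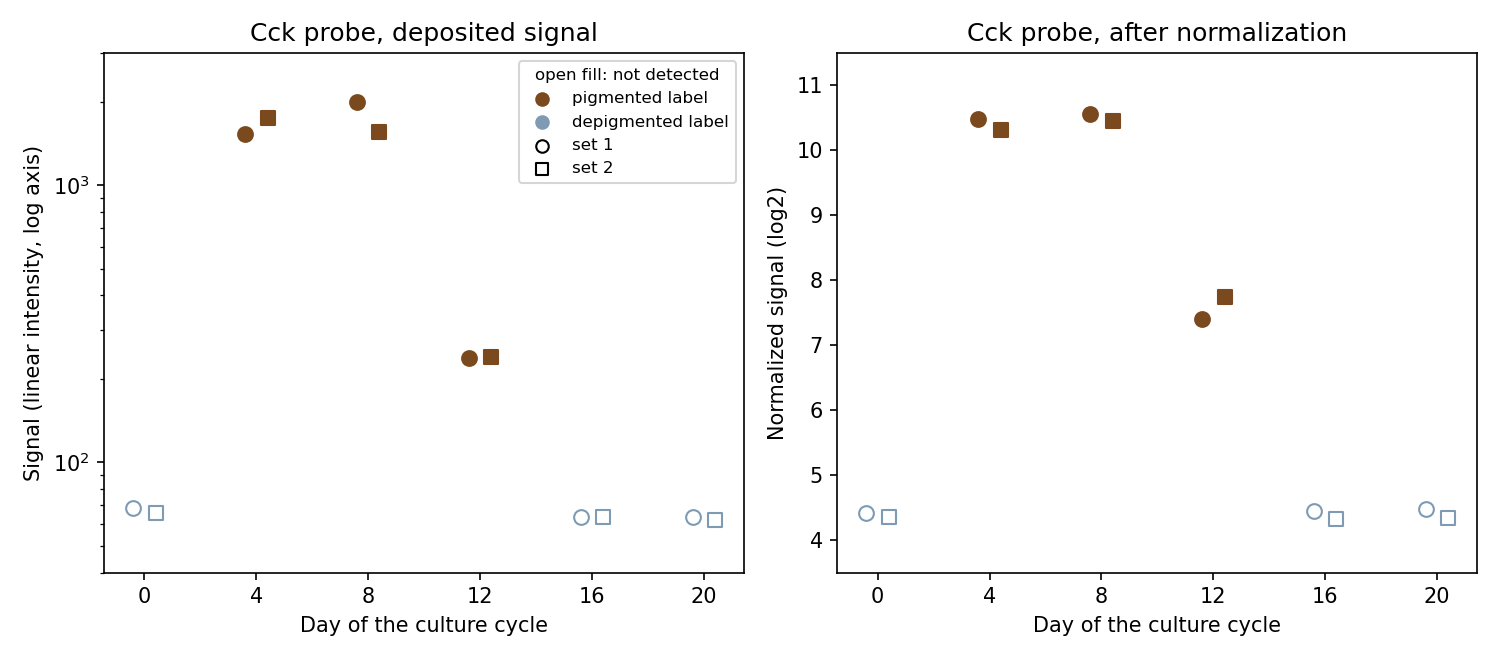
Signal of the Cck probe on each of the 12 arrays by day, as deposited on a log axis (left) and after normalization on the log2 scale (right). Brown marks arrays labelled pigmented, blue those labelled depigmented, circles set 1 and squares set 2, and open symbols were not detected. The 4 arrays of days 4 and 8 lie at 1531 to 1997, those of day 12 at 239 and 241, and the 6 depigmented arrays at 61.9 to 68.4.

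After background correction and quantile normalization, Cck stood on the log2 scale at 4.42 and 4.36 on day 0, 10.49 and 10.32 on day 4, 10.56 and 10.46 on day 8, 7.41 and 7.75 on day 12, 4.45 and 4.33 on day 16, and 4.48 and 4.34 on day 20. Since no array of day 0 detected it, its differences from day 0 are given as bounds within this normalization, taken against the lowest value at which any probe was detected on those arrays. On these values Cck was at least 45.9-fold higher on day 4, at least 49.3-fold higher on day 8 and at least 6.48-fold higher on day 12 than on day 0, or 5.52, 5.62 and 2.70 on the log2 scale. On day 16 it was at least 6.67-fold lower than on day 12. These sizes depend on taking off background: the deposited signals themselves had ratios to day 0 of 24.4 on day 4, 26.5 on day 8 and 3.57 on day 12, and the ratio of day 16 to day 12 was 0.265. Without background correction the log2 differences from day 0 were 4.13, 4.22 and 1.67, and that of day 16 from day 12 was -1.67. The bounds given for other genes below likewise hold for the normalized values only. Cck ranked first of 11470 genes by fitted log2 difference on both day 4 and day 8, at 6.02 and 6.12, and the next on day 8 were ND4L (4.71), Gpr143 (4.35) and Eps8 (4.15). This rank is what selected the gene.

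Within the pigmented days, Cck was about level between days 4 and 8 and lower on day 12. The high values of days 4 and 8 are what selected the gene, so these differences are also given without a test. Day 8 differed from day 4 by 0.10 ± 0.14 on the log2 scale (SE, n = 2 arrays per day), with a 95% interval of -0.18 to 0.39. Between these days limma called 0 of all 11470 genes (0%), and 307 had an unadjusted p under 0.05. Day 12 was below day 8 by a log2 difference of -2.93 ± 0.14 and below day 4 by -2.83 ± 0.14.

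Both sets, as numbered with the deposited signals, gave the same course. The authors' table of processed values exchanges the set numbers on days 4, 12 and 20, so values per set rest on the numbering of the signals. The log2 difference of day 12 from day 8 was -3.14 in set 1 and -2.71 in set 2, and that of day 8 from day 0 was 6.14 in set 1 and 6.10 in set 2. Over all days set 2 differed from set 1 by -0.041 ± 0.078 (limma with day and set, adjusted p = 0.881). The density labels of the arrays, which depart from the protocol on several days, are given as a description. The part of seeding density in the course of Cck was not tested. With the density labels as a covariate, 6911 of 11470 genes were called on day 8 against day 0, where 7241 were otherwise. Both day 4 arrays were labelled 100 cells per cm2 and both day 8 arrays 10000, and Cck was bright on all 4. Of the undetected arrays, those of day 16 were labelled 100, those of day 20 10000, and those of day 0 10000 in set 1 and 100 in set 2. Day 16 against day 0, day 20 against day 0 and day 20 against day 16 compare arrays that all lacked detection, so neither a fold nor a test is given.

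The pattern was uncommon on these arrays. Of the 11470 genes tested, 8 (0.0697%) were detected on all pigmented arrays and on no depigmented array, Cck among them. The other genes with that pattern were Acaa1b, Cpz, Ddias, Mmrn2, Pafah1b2, Scn2b and Tnfrsf18, named here after their values were seen. Their highest normalized value was 6.63, for Cpz on day 8, whereas Cck reached 10.56. A broader pattern, detection on days 4 and 8 and not on days 0, 16 and 20, was met by 36 genes (0.314%). The high signal of Cck on the pigmented days is what selected it. Its detection pattern and its higher value are therefore descriptions, and neither was tested.

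Melanocyte genes were also higher on days 4 and 8, and 11 of the 16 tested were still above day 0 on day 16. On day 20, also after replating, the median log2 change of these 16 from day 0 was -0.64, beside -0.11 for all genes. All 16 tested genes of melanocyte identity rose on day 8 against day 0 (median log2 change 1.59), where 29.3% of all genes rose and 33.9% fell and the median of all genes was -0.04. Tyr, which encodes the rate-limiting enzyme of melanin synthesis, had normalized log2 values of 9.90 and 9.89 on day 8 and of 5.86 and 6.13 on day 0. Slc45a2, a melanosomal transporter, stood at 12.55 and 12.51 on day 8 and at 8.63 and 8.58 on day 0. The changes were 3.90 ± 0.11 for Tyr and 3.93 ± 0.07 for Slc45a2. Gpr143, a melanosomal receptor, rose by 4.35 ± 0.11, Trpm1, a cation channel of melanocytes, by 3.98 ± 0.09, Mc1r, the melanocortin receptor, by 1.65 ± 0.12, and Mitf, the master transcription factor of the lineage, by 1.54 ± 0.12 (limma adjusted p of 6.38e-11 for Mc1r and 3.3e-10 for Mitf, and lower for the others).

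On day 12 against day 8, falls were called for 12 of the 16 melanocyte genes and a rise for 1, beside 26.2% and 27.2% of all genes, and their median was -0.87. Tyr changed by -1.20 ± 0.11, Slc45a2 by -1.19 ± 0.07, Trpm1 by -0.48 ± 0.09, Gpr143 by -3.14 ± 0.11 and Mitf by -2.84 ± 0.12, next to -2.93 ± 0.14 for Cck. On day 16, when Cck was undetected, 11 of the 16 were above day 0 and 0 below, beside 20.9% and 26.6% of all genes. Tyr was still above day 0 by 2.47 ± 0.11, Slc45a2 by 1.78 ± 0.07 and Gpr143 by 1.62 ± 0.11. Oca2, a melanosomal membrane protein, was like Cck undetected on both arrays of days 0, 16 and 20. It was detected on 5 arrays, all pigmented, and is among the 16 genes tested through those arrays alone. Trpm1 (-0.08 ± 0.09, adjusted p = 0.471) did not pass against day 0 on day 16, after a log2 change of -3.58 ± 0.09 from day 12. Mitf moved in the opposite direction to Cck between these days, for which 20.7% of all genes rose and 19.7% fell, with normalized values of 8.70 and 8.77 on day 16 and of 7.22 and 6.83 on day 12. Over the 12 arrays, which share days in pairs, Pearson's r with Cck lay between 0.486 for Dct and 0.94 for Oca2 in the 16 genes, with a median of 0.754. These differences in course between genes were not tested.

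**Figure D2:**
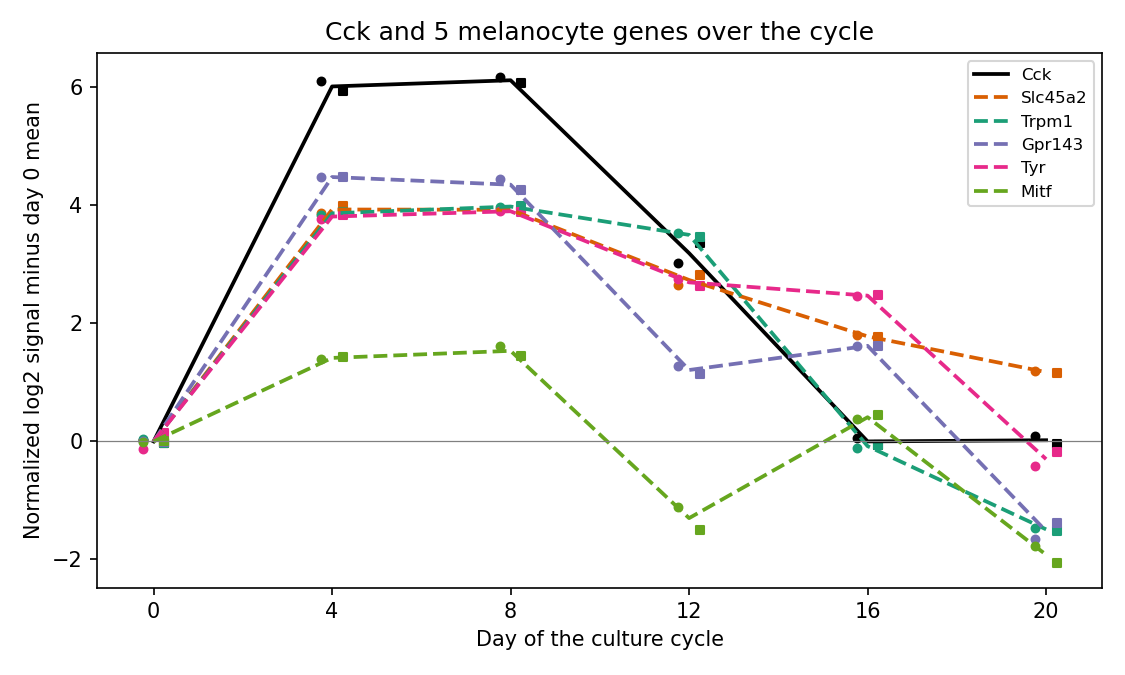
Normalized log2 signal minus the mean of day 0, by day, for Cck (solid black) and 5 melanocyte genes (dashed). Lines join the means of 2 arrays, circles are set 1 and squares set 2, and Cck values on days 0, 16 and 20 were not detected. Cck is back at its day 0 value on day 16, where Tyr is 2.47 and Slc45a2 1.78 above theirs.

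Receptors and the sister hormone were not detected. The probe of Cckar was detected on 0 of 12 arrays (signal 57.6 to 73.4), as were both probes of Cckbr (53.2 to 72.7) and that of Gast, which encodes gastrin (53.2 to 74.8). Among 4 tested peptidases that can break down cholecystokinin or other small peptides, 2 fell and 0 rose on day 8 against day 0, beside 33.9% and 29.3% of all genes. Anpep, aminopeptidase N, stood at 4.73 and 5.10 on day 8 and at 6.46 and 6.58 on day 0 (-1.61 ± 0.16, limma adjusted p = 1.66e-08). Ace, the angiotensin-converting enzyme, was at least 1.48-fold lower, with a log2 change of -0.39 without background correction. It was detected on the day 0 arrays alone, which is how it passed the filter on low values. Tpp2, tripeptidyl peptidase II, had a value of -0.04 ± 0.11 (adjusted p = 0.747). Mme, neprilysin, was detected on 3 of 12 arrays and did not pass (adjusted p = 0.551).

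The prohormone convertase of endocrine cells that the arrays measure was not detected. Both probes of Pcsk1, that convertase, were detected on 0 of 12 arrays, and so was Scg5, which encodes the chaperone of another convertase. Of 5 tested cleavage genes 1 rose and 2 fell on day 8, near the shares of all genes (29.3% and 33.9%). Furin, a convertase present in most cells, fell (10.98 and 11.01 on day 8, 12.35 and 12.31 on day 0, limma adjusted p = 3.38e-12), as did Pcsk4 (-1.13 ± 0.15, adjusted p = 1.45e-06). Pcsk7 rose by 0.38 ± 0.11 (adjusted p = 0.0061), a call lost without set 2 of day 0 (0.30, adjusted p = 0.0854).

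Trimming and amidation genes were detected and went both ways, with 2 of 5 higher and 3 lower on day 8, beside 29.3% and 33.9% of all genes. Cpe, carboxypeptidase E, was bright on all 12 arrays and stood at 11.70 and 11.67 on day 8 and at 12.09 and 12.17 on day 0 (-0.44 ± 0.09, limma adjusted p = 0.000139). Pam, the amidating enzyme, changed by -0.44 ± 0.17 (adjusted p = 0.0255). Median centring ended both calls (-0.24 for Cpe, adjusted p = 0.149, and -0.41 for Pam, adjusted p = 0.0772), and the call of Pam was lost under 5 of 22 alternatives, with a largest adjusted p of 0.266 when the set 2 array of day 8 was left out. Cpm, a membrane carboxypeptidase, fell by 1.38 on the log2 scale (SE 0.13, adjusted p = 4.4e-09). Qpct, which forms the pyroglutamate end of some peptides, rose by 1.56 ± 0.14 (adjusted p = 1.67e-09). Cpz, carboxypeptidase Z, was at least 3.09-fold higher on day 8 (6.63 and 6.39 on day 8, not detected on day 0 at 4.73 and 4.60), with a log2 change of 0.81 without background correction. It was detected on pigmented arrays alone, which is how it passed the filter on low values.

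Of 7 tested sulfation genes, 5 were detected on all 12 arrays, Papss2 on 10 and Slc26a2 on 2. On day 8 against day 0, 3 rose and 2 fell, beside 29.3% and 33.9% of all genes. The sulfotransferase genes took opposite directions: Tpst1 rose by 0.29 ± 0.09 (limma adjusted p = 0.00714) and Tpst2 changed by -0.49 ± 0.09 (adjusted p = 5.42e-05). The Tpst1 call was lost when either set 1 array was left out, at 0.20 without that of day 0 (adjusted p = 0.121) and 0.22 without that of day 8 (adjusted p = 0.0867). Slc35b3, a Golgi transporter of the sulfate donor, stood at 9.74 and 9.70 on day 8 and at 9.02 and 9.01 on day 0, and rose by 0.71 ± 0.08 (adjusted p = 5.67e-08). Papss1, which makes that donor, rose by 0.53 ± 0.08 (adjusted p = 9.68e-06). Slc35b2, the other such transporter, changed by -0.37 ± 0.09 (adjusted p = 0.000901), or by -0.24 with median centring (adjusted p = 0.249).

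The granin genes Chga, Chgb and Scg2 were not detected, whereas part of the other granule and exocytosis genes was. Of 41 annotated genes of dense-core granules and exocytosis 19 were tested, 8 rose and 9 fell on day 8, with a median of -0.03, beside 29.3% and 33.9% of all genes and their median of -0.04. Chga, Chgb and Scg2, granins that fill such granules, were detected on 0 of 12 arrays. Syt4, a synaptotagmin of secretory vesicles, stood at 13.77 and 13.55 on day 8 and at 10.89 and 10.98 on day 0 and rose by 2.73 ± 0.08 (limma adjusted p = 2.87e-17). Syt9, a calcium sensor of exocytosis, rose by 2.24 ± 0.11. Hid1, a protein of granule formation, changed by -1.86 ± 0.16, and Rab3d, a GTPase of secretory granules, by -1.85 ± 0.10 (adjusted p of 1.55e-09 for Hid1 and 4.75e-13 for Rab3d).

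**Figure D3:**
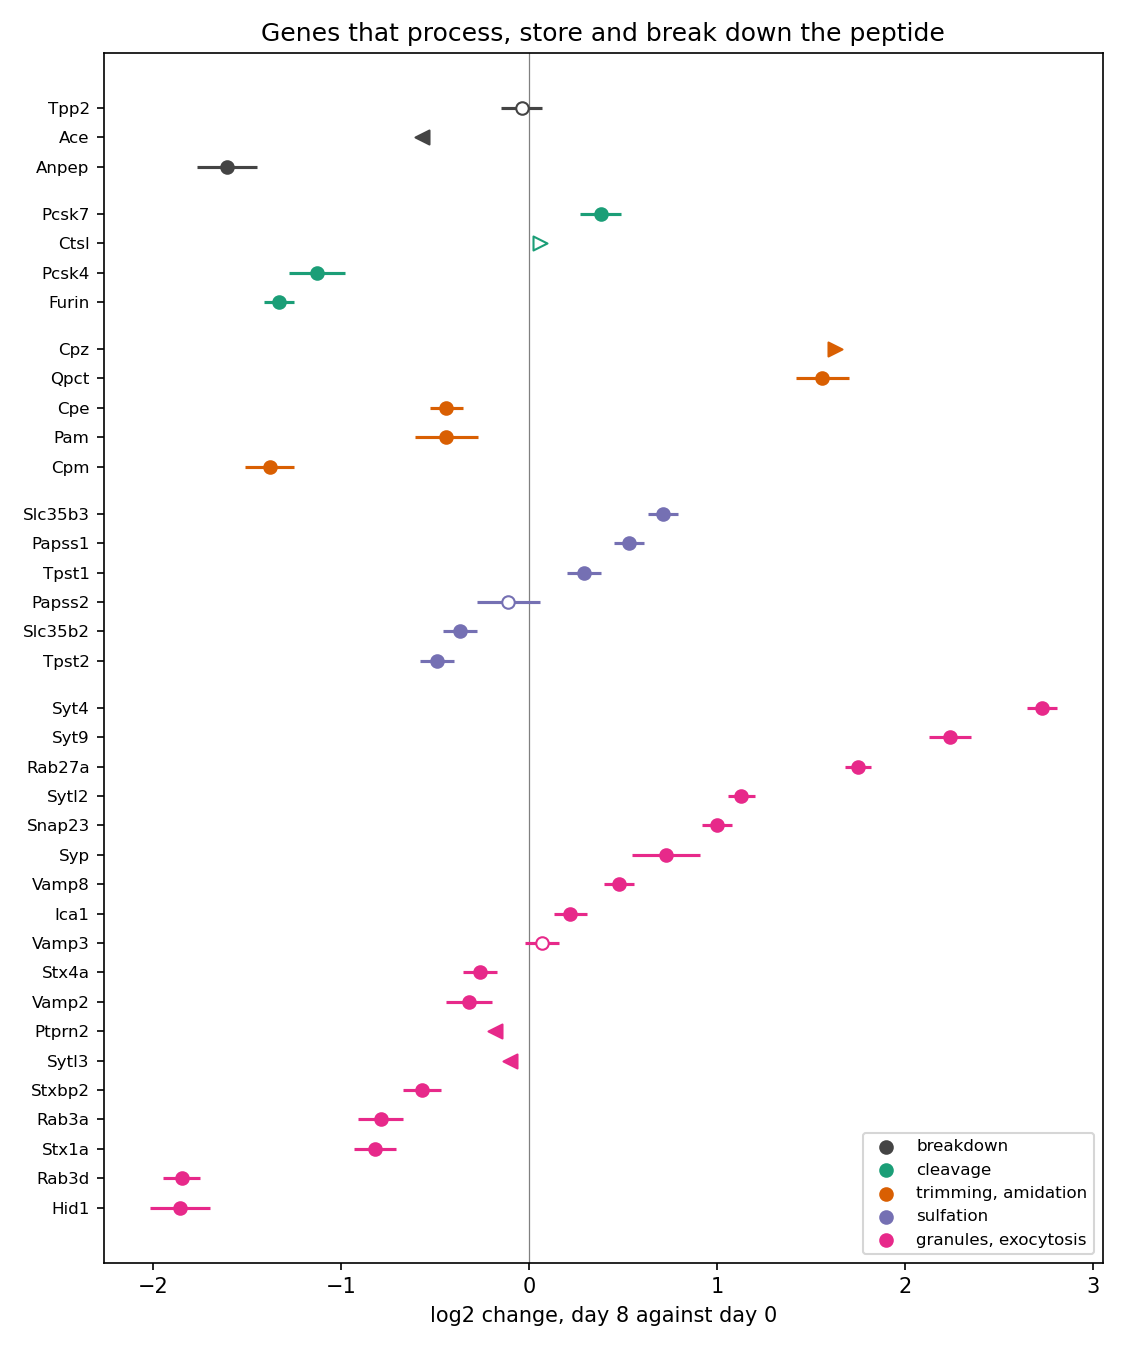
Log2 change of day 8 against day 0 for genes that break down, cleave, trim and amidate, sulfate or store peptide hormones, with SE bars from limma (2 arrays per day). Filled symbols passed an adjusted p of 0.05, triangles are bounds where 1 of the days lacked detection, and genes undetected on both days or without a bound are left out. Syt4 (2.73) and Syt9 (2.24) lie far to the right, and Hid1 (-1.86) and Rab3d (-1.85) far to the left.

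Transcription factors listed for the Cck promoter mostly fell. The list was not limited to the motifs matched above: it also holds Sp1 and Sp3, whose GC box, GGGCGG, was not in the window. Sp1 was among the falls, and both are named after their values were seen. Of 20 tested, 3 rose and 12 fell on day 8 against day 0 (median -0.40), beside 29.3% and 33.9% of all genes. The AP-1 genes led the falls: Fosb stood at 5.92 and 6.01 on day 8 and at 11.28 and 11.38 on day 0 (-5.37 ± 0.13), Fos changed by -3.47 ± 0.09, Junb by -2.83 ± 0.09 and Fosl2 by -2.35 ± 0.10 (limma adjusted p of at most 3.55e-14). Mitf, which binds E-boxes, was among the 3 that rose, with Usf2 (1.19 ± 0.15) and Crem (1.11 ± 0.15), both named, like Usf1, after their values were seen. Usf1, the partner of Usf2, fell by 1.15 on the log2 scale (SE 0.14, adjusted p = 3.91e-07). Creb1, a factor of the cyclic AMP response, did not pass (0.24 ± 0.17, adjusted p = 0.233). On day 16 against day 0, when Cck was undetected, 2 of the 20 were higher and 10 lower, beside 20.9% and 26.6% of all genes. Fos was then below day 0 by a log2 change of -4.37 ± 0.09, and Fosb stood at 4.91 and 4.92.

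On the cyclic AMP pathway list, 7 of 27 tested genes rose and 12 fell on day 8 (median -0.23), beside 29.3% and 33.9% of all genes. Mc1r, which couples to this pathway, was the largest rise, as given above. Targets that cyclic AMP induces in many cells went both ways. Nr4a2 stood at 5.29 and 5.38 on day 8 and at 7.76 and 7.63 on day 0 (-2.36 ± 0.19, limma adjusted p = 6.3e-10). Sik1 changed by -1.90 ± 0.19 (adjusted p = 1.36e-08). Nr4a1 was at least 2.29-fold lower, with a log2 change of -0.71 without background correction. Ppargc1a rose by 0.33 ± 0.09 (adjusted p = 0.00273), as did Crem above, and Nr4a3 did not pass (0.11 ± 0.16, adjusted p = 0.543). Ppargc1a and Nr4a3 are named after their values were seen. Nr4a1 was detected on 3 arrays, all depigmented, which is how it passed the filter on low values. Day 12 against day 0 gave 5 rises and 10 falls, beside 22.8% and 29.5% of all genes, and day 16 against day 0 gave 6 and 11, beside 20.9% and 26.6%.

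The genes whose normalized values over the 12 arrays were most like those of Cck had Pearson's r of 0.972 to 0.988. They were Tmem184a, Samd12, Igsf11, Tmem144, Erlin1, Bglap, Cpz, Cyba, Bag2 and Gjb2, in that order. Igsf11, an adhesion protein, had day means of 5.12, 8.20, 8.24, 6.14, 5.35 and 4.80 from day 0 to day 20, and Gjb2, connexin 26, had 9.24, 11.40, 11.34, 9.82, 9.19 and 8.70. Both were high on the same 2 days and on day 12 lay between those levels and that of day 0, as Cck did. At the other end, Dhx58 (r = -0.996), an interferon-induced helicase gene, Trim30d (-0.994), Ak4 (-0.992), Wfdc12 (-0.986) and Nfix (-0.985) ran opposite to Cck. Dhx58 had day means of 10.62, 6.38, 6.34, 8.07, 10.22 and 10.48. The median r over all 11469 other genes was 0.008. These are descriptions over 12 arrays in which each day appears as a pair, and Cck was undetected on 6 of them. Spearman's correlation, by ranks, was 0.783 (Igsf11) to 0.923 (Tmem144) for the 10 genes most like Cck. For the 5 others it was -0.86 (Nfix) to -0.797 (Trim30d and Wfdc12). Samd12 was detected on 4 pigmented arrays alone, with a mean of 5.24 on day 4.

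**Figure D4:**
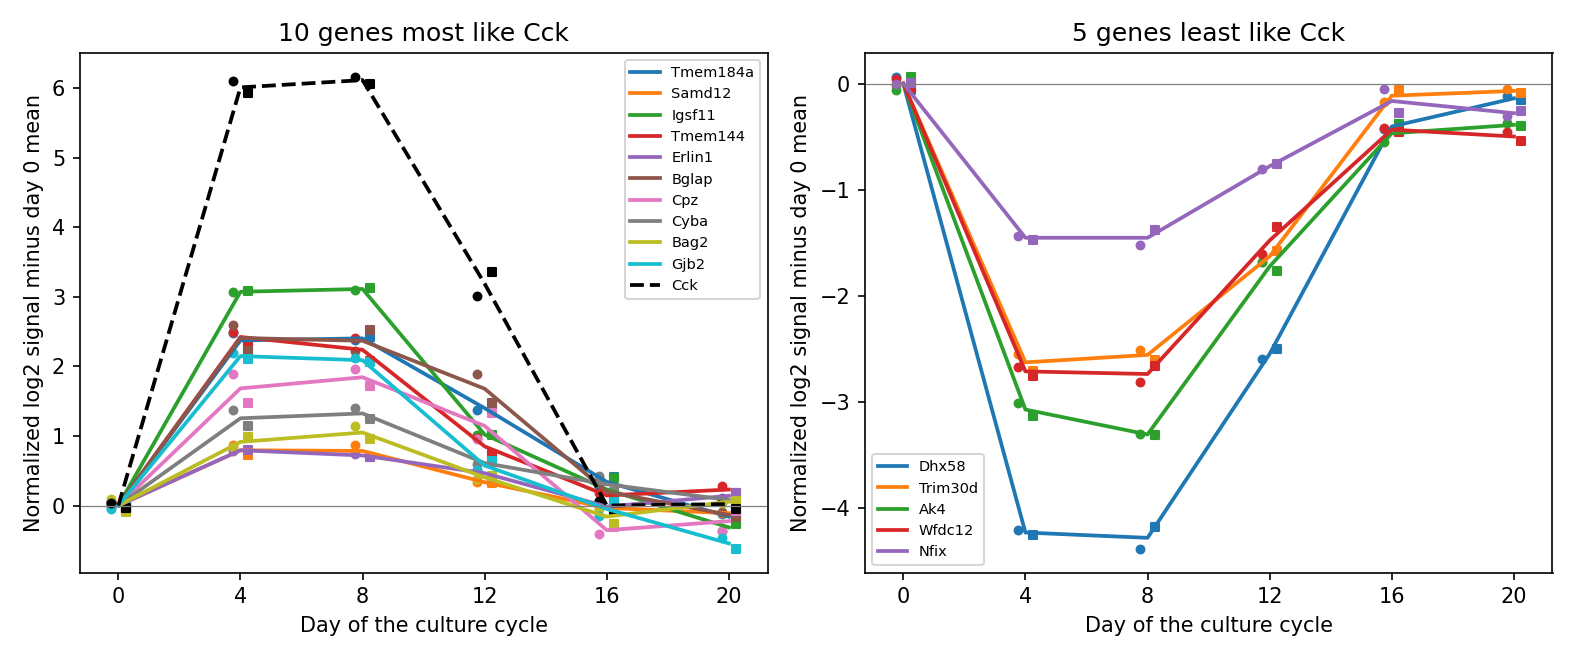
Normalized log2 signal minus the mean of day 0, by day, for the 10 genes with the highest Pearson correlation with Cck (left, Cck dashed) and the 5 with the lowest (right). Lines join the means of 2 arrays, circles are set 1 and squares set 2. The left-hand genes peak on days 4 and 8 and the right-hand genes are lowest on those days, when Dhx58 averaged 6.38 and 6.34, against 10.62 on day 0.

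Genes beside Cck on chromosome 9 went both ways on day 8. Of the 10 nearest protein-coding genes, 5 on each side in RefSeq, 7 were tested, and on day 8 against day 0 3 rose and 3 fell, beside 29.3% and 33.9% of all genes. Trak1, whose end lies 14.9 kb away and which encodes a mitochondrial transport adaptor, was the closest and stood at 7.87 and 7.77 on day 8 and at 9.02 and 8.92 on day 0 (-1.14 ± 0.10, limma adjusted p = 3.06e-09). Lyzl4, the nearest on the other side at 82.1 kb, changed by -0.58 ± 0.16 (adjusted p = 0.00315), a call lost without set 2 of day 8 (-0.45, adjusted p = 0.0589). Nktr changed by -0.98 ± 0.08, Ss18l2 by 1.35 ± 0.08 and Sec22c by 0.78 ± 0.11 (adjusted p of at most 3.34e-06). Sec22c, which encodes a protein of vesicle traffic, was above day 0 on day 4 as well (0.80 ± 0.11) and did not pass on day 12 (-0.04, adjusted p = 0.816) or day 16 (-0.12, adjusted p = 0.417). Over the 12 arrays Pearson's r with Cck was 0.865 for Sec22c, 0.818 for Ss18l2, 0.80 for Ctnnb1, -0.218 for Ulk4, -0.268 for Lyzl4, -0.441 for Nktr and -0.768 for Trak1. Ctnnb1, the beta-catenin gene, rose by 0.39 ± 0.07 by its brightest probe, but averaging its probes gave -0.03 (adjusted p = 0.804). Ulk4 did not pass (adjusted p = 0.166), and Entpd3, Rpl14 and Vipr1 were not detected on enough arrays to be tested.

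Markers of other cell types moved beside these changes, and their part in the result for Cck was not tested. All 3 tested fibroblast markers were lower on day 8 than on day 0, beside 33.9% of all genes. Pdgfra was lower at least 3.34-fold (log2 change -1.04 without background correction), Col1a1 at least 1.78-fold (-0.48), and Pdgfrb changed by -1.62 ± 0.17. Col1a2, Dcn and Lum were detected on 0 of 12 arrays. The summed signal of the 6 was 402.7 to 445 on pigmented and 406.3 to 615.8 on depigmented arrays. Of 5 tested neuronal markers 4 fell and 0 rose, beside 33.9% and 29.3% of all genes, and 6 of 12 were never detected. The falls were of Slc17a7 (at least 5.27-fold, or a log2 change of -1.37 without background correction), Map2 (-1.55 ± 0.13), Rbfox3 (at least 1.39-fold, or -0.30) and Syn1 (-0.75 ± 0.16). The summed signal of the 12 was 1004 to 1199 on pigmented and 1106 to 1730 on depigmented arrays. Col1a1 and Rbfox3 were detected on depigmented arrays alone, which is how they passed the filter on low values. Of 6 annotated leukocyte markers, Ptprc, Cd3e and Csf1r were never detected. Fcer1g rose by 1.42 ± 0.16 and Lyz2 changed by -0.50 ± 0.17 (0.21 when its probes were averaged, adjusted p = 0.188, and not past the threshold without set 1 of day 0 or set 2 of day 8). The 6 summed to 431.5 to 563.2 on pigmented and 402.1 to 479.1 on depigmented arrays. Among neuroendocrine markers Syp rose (0.73 ± 0.18), Eno2 fell (-1.48 ± 0.09) and Etv1 fell (-0.46 ± 0.12), although averaging the probes of Etv1 gave 0.64 (adjusted p = 0.000564). Krt1 (-0.14 ± 0.19) and Vwf (0.16 ± 0.19), the only tested markers of keratinocytes and endothelium, did not pass.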

How the data were processed

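Per the labels' protocols, total RNA was extracted with Trizol, purified on columns, labelled with biotin and hybridized to Illumina mouse bead arrays. The deposited signal table gives a linear intensity per probe and a detection p-value, per the file headers, and the software behind it is not given in the sources used here. A second table deposited by the authors holds intensity values that are straight-line transforms of those signals, as found from the values, with column medians of 6.26 to 8.71. For 6 of 12 columns its set numbers, but not its days, differed from the signal table, whose numbers were used. With no coordinates or sequences of probes at hand, signals cannot be checked for cross-hybridization.

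Signals were corrected for background with parameters inferred from the detection p-values, given an offset of 16 and quantile normalized (neqc of limma 3.58.1, R 4.3.3). A probe was kept when its detection p-value was under 0.05 on 2 or more arrays (22978 probes), a filter that Cck passed through its pigmented arrays alone. The platform annotation names 34885 probes by 1 symbol and 18 by several, leaving 10378 unnamed. The probe with the highest mean represented each of 11470 genes. Changes were tested with limma (lmFit, eBayes with trend, day as a factor over all 12 arrays), with Benjamini-Hochberg adjustment over all genes, two-sided, at 0.05. The fit was also run on simulated data, and the outcome is not used here. Differences of Cck between days are described without a test, since its signal on those days selected it. Lists are described by counts or medians beside those of all genes. The number of arrays, 2 per day, limits the precision.

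Members and lists were chosen with earlier results of these data known. Named genes were Cck, its family, the neighbours, the 4 largest called changes per list on day 8, a fixed set (Pcsk1, Pcsk2, Cpe, Pam, Tpst1, Tpst2, Scg5, Chga, Chgb, Scg2, Mitf, Creb1, Mc1r and Tyr; Pcsk2 was not analysed here), and the 10 genes most and 5 genes least correlated with Cck. Promoter sequence and gene positions came from RefSeq (GRCm38.p6), in which Cck matched by symbol. The protein sequence was not used here.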

Additional observations from a re-analysis of the deposited data

How the results depend on the processing

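Cck ranked first by its day 8 difference from day 0 under each alternative that kept it. The alternatives reuse the signals that selected Cck, so this rank is a description and no support for the choice. The differences of Cck moved by more than the spread between arrays under 4 alternatives. Those involving day 12 also did so when either day 12 array was left out. None of them changed direction. For days 4, 8 and 12 against day 0 and day 16 against day 12, the log2 values were 4.13, 4.22, 1.67 and -1.67 without background correction, 4.66, 4.76, 2.04 and -2.03 with an offset of 50, and 6.40, 6.53, 3.66 and -3.60 with the authors' deposited values, whereas median centring moved day 4 to 6.20 and day 8 to 6.32. Leaving out 1 array at a time, the remaining array of a day being assumed to vary like the others, gave 5.93 to 6.06, 6.03 to 6.16, 3.03 to 3.34 and -3.34 to -3.03, and between -3.10 and -2.77 for day 12 against day 8. Counts of list genes on day 8 kept within 1.5 times of those given, apart from carboxypeptidase and amidation with median centring (3), prohormone cleavage with no filter on detection (5), neuronal markers with probes detected on all arrays (1) and leukocyte markers with the mean of probes (1). Without 1 array, leukocyte markers gave 1 to 2 and cleavage genes 2 to 3. Of 58 other named genes 49 kept their day 8 call under all alternatives, Lyz2 (0.21), Ctnnb1 (-0.03) and Etv1 (0.64) changed sign with the mean of probes, and the cause was not tested. Set numbers were tried as a replicate block: Cck day 12 against day 8 gave -2.93, 7417 genes were called on day 8 against day 0 where 7241 were without it, and deviations of same-numbered arrays correlated above 0.1 for 8 of 15 pairs of days, short of the level of every pair above 0.1 that was required to treat the arrays as paired. Neither the block nor the set numbers of the value table, an alternative chosen after seeing the data, changed the direction of a Cck difference between days 4, 8 and 12. No other Cck probe exists to be tried, headers give no slide, and Cck was not measured among probes detected on all arrays.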

Other observations

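Peptide precursors other than Cck were mostly not detected on these arrays. Of 62 annotated genes for peptide hormones and neuropeptides 39 were detected on 0 of 12 arrays and 6 on all 12. In all, 18 of the 62 were tested, beside 11470 of all 19057 annotated genes. On day 8 against day 0, 3 rose and 3 fell (median -0.16), beside 29.3% and 33.9% of all genes. Rln1, relaxin 1, had normalized log2 values of 7.63 and 7.56 on day 8 and of 5.68 and 5.48 on day 0 (2.02 ± 0.14, limma adjusted p = 4.03e-11). Cort, cortistatin, rose by 1.24 ± 0.12 on day 8, was highest on day 12 at 9.95 and 10.07, and stood at 7.25 and 7.52 on day 16. Both genes fell from day 12 to day 16, with log2 changes of -1.68 for Rln1 (adjusted p = 4.22e-09) and -2.63 for Cort (adjusted p = 3.94e-13), as the signal of Cck was lost. Agt, angiotensinogen, named after its values were seen, rose by 1.08 ± 0.17. Insl3 changed by -1.95 ± 0.11 and Adm, adrenomedullin, by -1.41 ± 0.17, and the third lower gene was Insl6 (-0.82 ± 0.08), named after its values were seen.

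Syt4 differed from Cck around replating. It stood at 13.01 and 13.00 on day 16 and at 11.87 and 11.84 on day 12, a rise of 1.15 ± 0.08 (adjusted p = 2.55e-10). Among the 10 genes most like Cck, promoters of 9 were in the RefSeq table, and CACGTG was found in 1 of 3 promoters of Erlin1 and in none of the promoters of the other 8.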
